A study of Homo sapiens with 4 samples.

Results

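The genes described here are 46 epithelial genes that encode tight junction and desmosome proteins, keratins, polarity and membrane sorting proteins, membrane proteases with their inhibitors, and regulators of epithelial expression. They were taken by symbol from a table of 57815 rows that gives the FPKM (a fragment count corrected for gene length and library depth) of every annotated gene in 4 RNA-seq libraries. All 46 symbols had a row, and F11R had 2, so that 47 rows are described. The libraries came from MKN1 cells with siHOXB9, MKN1 cells with siScramble, AGS cells with siHOXB9 and AGS cells with siScramble, with 1 library in each group. MKN1 and AGS are established human gastric cancer cell lines. siHOXB9 is a small interfering RNA against HOXB9, a homeobox transcription factor, and siScramble is the control siRNA, which the labels list with the genotype WT, while siHOXB9 cells are listed as HOXB9 knockdown. All cells of both groups went through Lipofectamine 2000 transfection, and neither line was left untransfected in the samples analysed here. Neither the time after transfection nor the siRNA sequences stand in the labels. The series set out to find genes that depend on HOXB9.

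Epithelial cells are joined by tight junctions, in which claudins and occludin seal the gap between neighbours and ZO proteins tie them to actin, and by desmosomes, in which cadherins of the DSG and DSC families are linked through plakoglobin, plakophilins and desmoplakin to keratin filaments. Keratin filaments are built from pairs of an acidic type I and a basic type II keratin, and simple epithelia such as the gastric mucosa mostly use KRT8 and KRT18. Transcription factors of the GRHL and OVOL families and the splicing factors ESRP1 and ESRP2 maintain this programme, while ZEB, SNAI and TWIST proteins are known to repress parts of it in epithelial-mesenchymal transition.

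The libraries held about 10680000 to 13020000 fragments, as estimated from the spacing of low values, so that 1 FPKM corresponds to about 18.6 to 22.7 fragments in a transcript of 2 kb. HOXB9 itself was at 0.218 FPKM in MKN1 siHOXB9 against 1.14 FPKM in MKN1 siScramble, and at 4.44 FPKM in AGS siHOXB9 against 16.4 FPKM in AGS siScramble. The siScramble level was thus low in MKN1. KRT8 and KRT18 were high in all 4 libraries, while CDH1 (E-cadherin) was at 0.285 and 0.0752 FPKM in the MKN1 siHOXB9 and siScramble libraries and at 3.28 and 1.63 FPKM in the AGS siHOXB9 and siScramble libraries. Of 8 gastric epithelial markers, 1 to 2 reached 1 FPKM in a MKN1 library and 3 in each AGS library, with summed levels of 2.77 to 3.18 FPKM in MKN1 and 1103 to 1234 FPKM in AGS. Most of the AGS sum was CTSE, at 1199.7 and 1053.8 FPKM in AGS siHOXB9 and siScramble. PGC and TFF1 were at 14.8 to 26.2 FPKM in AGS, and the other 5 markers stayed under 1 FPKM there. Fibroblast markers (6 genes) summed to 59.1 to 72.6 FPKM in MKN1 and to 16.2 to 30.7 FPKM in AGS. Among them, COL1A1 was at 43.8 and 35.0 FPKM in MKN1 siHOXB9 and siScramble and at 29.3 and 15.8 FPKM in AGS, in the same order. COL3A1 was at 20.2 and 17.4 FPKM in MKN1 siHOXB9 and siScramble and at most 0.0874 FPKM in AGS. COL1A2 was listed at 0 in all libraries. DCN was at 0.839 and 1.52 FPKM in MKN1 siHOXB9 and siScramble and was listed at 0 in AGS. LUM was at 6.90 and 3.93 FPKM in MKN1, in the same order, and at most 0.109 FPKM in AGS. PDGFRB overlapped between the lines, at 0.829 and 1.16 FPKM in MKN1 and 1.31 and 0.332 FPKM in AGS, siHOXB9 first. The endothelial marker CDH5 was at 0.856 and 1.95 FPKM in MKN1 siHOXB9 and siScramble and was listed at 0 in AGS. The endothelial marker KDR and the T cell marker CD3E were listed at 0 in all libraries, and PTPRC, the pan-leukocyte marker, reached at most 0.0183 FPKM. LYZ, the lysozyme gene, which was the only immune marker at 1 FPKM or more and is also known from gastrointestinal epithelium, was at 2.0 and 2.01 FPKM in the MKN1 siHOXB9 and siScramble libraries and at 2163 and 2197 FPKM in the AGS siHOXB9 and siScramble libraries. The part that other cell types play in the results was not tested, and fewer cells of a type and less RNA per cell cannot be told apart in bulk RNA.

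The first comparison was siHOXB9 against siScramble within each line. Most of the junction, keratin and polarity genes lay close to their control level, and on the log2(FPKM + 1) scale 2-fold was passed by 2 genes in AGS and by none in MKN1. In AGS, KRT17, a type I keratin of basal and stressed epithelia, was at 24.9 FPKM with siHOXB9 against 10.6 FPKM with siScramble, a log2 difference of 1.16 with 1 FPKM added to each value. EHF, an ETS transcription factor of epithelia, was at 1.90 FPKM in AGS siHOXB9 against 5.38 FPKM in AGS siScramble, a log2 difference of -1.14. Of 45 rows that reached 1 FPKM in AGS, these 2 passed the size rule of 2-fold, 1 in each direction. Of all 13252 AGS rows with that level, 3.89% passed it, 1.68% higher and 2.21% lower with siHOXB9, so the share among the 45 is near that of all genes. The next in size were CLDN1 (log2 difference 0.71), GRHL1 (-0.49), PKP2 (-0.49) and CGN (0.49), all inside the rule.

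In MKN1, none of 33 rows that reached 1 FPKM there passed the size rule, where 4.05% of all 13122 rows did, 2.1% higher and 1.94% lower. The largest differences belonged to the first row of F11R (2.11 FPKM with siHOXB9 against 0.887 FPKM with siScramble, log2 difference 0.72), CRB3 (1.99 against 0.8504 FPKM, 0.69), ELF3 (32.6 against 20.02 FPKM, 0.68), PPL (9.22 against 5.45 FPKM, 0.66) and PKP2 (2.03 against 3.59 FPKM, -0.60). With a pseudocount of 0.1 FPKM in place of 1, CRB3 (log2 difference 1.14) and the first row of F11R (1.16) were past 2-fold, as their FPKM ratios without a pseudocount also are. With 1 library per group, neither these differences nor those in AGS have a replicate error or a test. HOXB9 itself did not pass the size rule in MKN1 (log2 difference -0.81), though its FPKM with siHOXB9 was 19.1% of that with siScramble. A low row inside the rule thus need not have kept its level.

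The small differences were more often above 0 than below in both lines, in MKN1 at a share not far from that of all rows. In MKN1, 25 of the 33 rows were above 0, with a median log2 difference of 0.22, beside 63.1% of all rows above 0 and a median of 0.09 over all rows. In AGS, 30 of the 45 rows were above 0 with a median of 0.09, beside 43.0% of all rows and a median of -0.06. Relative to the median of all rows the medians were 0.13 in MKN1 and 0.15 in AGS, with 20 of 33 rows above it in MKN1 and 33 of 45 in AGS. After rescaling to equal total FPKM or quantile normalization, 21 of 33 were above 0 in MKN1 and 33 of 45 in AGS. Of 33 rows that reached 1 FPKM in both lines, 19 were above 0 in both, 5 below 0 in both and 9 went opposite ways. Of all 11547 such rows in the table, 3376 were above 0 in both, 2758 below 0 in both and 5412 went opposite ways.

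Over both lines together, limma was fitted with the line as a block. None of 45 rows in the fit passed an adjusted p of 0.05 for siHOXB9 against siScramble (limma, Benjamini-Hochberg over 13758 rows), where 0.00727% of all rows did. HOXB9 itself, the target of the siRNA, did not pass either (estimate -1.25, SE 0.268, limma adjusted p = 0.355). Before adjustment, 3 of the 45 rows, or 6.67%, had a limma p under 0.05, beside 7.12% of all rows. These were KRT17 (estimate 0.69, SE 0.239, limma adjusted p = 0.639), PKP2, a plakophilin that links desmosomal cadherins to desmoplakin (estimate -0.55, SE 0.199, adjusted p = 0.661), and CLDN4, a barrier-forming claudin (estimate 0.41, SE 0.173, adjusted p = 0.702). KRT17 and CLDN4 were higher with siHOXB9 in 2 of 2 lines and PKP2 lower in 2 of 2 lines. A small p in this fit favours rows that move alike in both lines, so the shared sign adds no further support. The fit has 1 residual degree of freedom, so a p that misses the threshold does not show that the levels were equal.

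**Figure D1:**
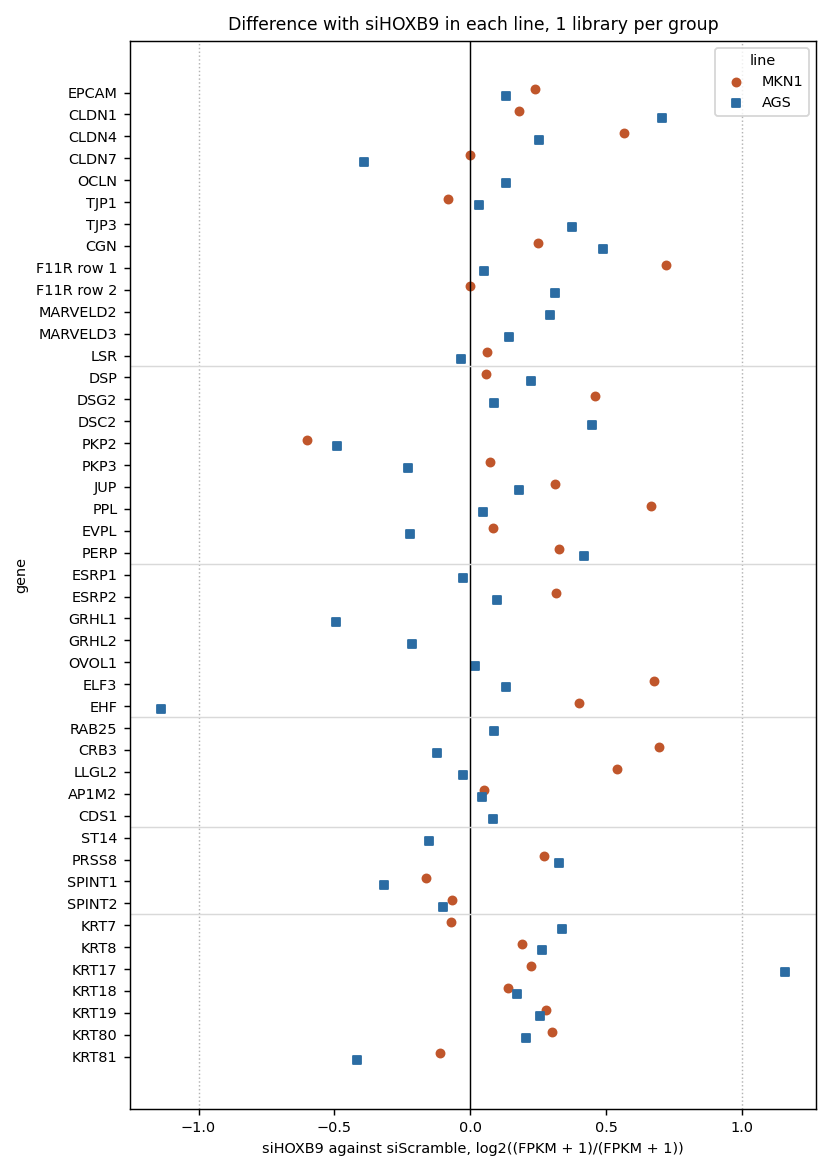
Log2 difference of siHOXB9 against siScramble, with 1 FPKM added to each value, for rows that reach 1 FPKM in that line (circles, MKN1; squares, AGS; 1 library per group; dotted lines, 2-fold). All MKN1 circles lie between -0.60 and 0.72, and only KRT17 (1.16) and EHF (-1.14) among the AGS squares lie outside the dotted lines.

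The second comparison, MKN1 against AGS, showed differences far larger than those with siHOXB9. Both MKN1 libraries were below both AGS libraries in 40 of the 45 rows that reached 1 FPKM anywhere, or 88.9%, beside 43.5% of 14827 such rows in the whole table. Both were above in 4 rows, which were the keratins KRT7, KRT17, KRT80 and KRT81, beside 35.2% of the whole table. The lines overlapped in DSG2. The other 2 of the 47 rows, CLDN3 and KRT23, stayed under 1 FPKM in every library. By limma on log2(FPKM + 1), with an adjusted p under 0.05 and at least 2-fold required, 33 rows were lower and 4 higher in MKN1 than in AGS and 8 were not called, beside 20.9% of all 13758 rows lower, 16.2% higher and 37.1% either way. Of these 45 rows, 12 had 1 FPKM or more in AGS libraries alone and so entered the fit through the line in which they are high. Among the 33 that reached 1 FPKM in MKN1, 21 were lower, 4 higher and 8 not called. The 2 libraries of a line differ in their siRNA and come from 1 line each, so the test concerns these lines as sampled, and its p-values rest on the spread shared between genes.

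**Figure D2:**
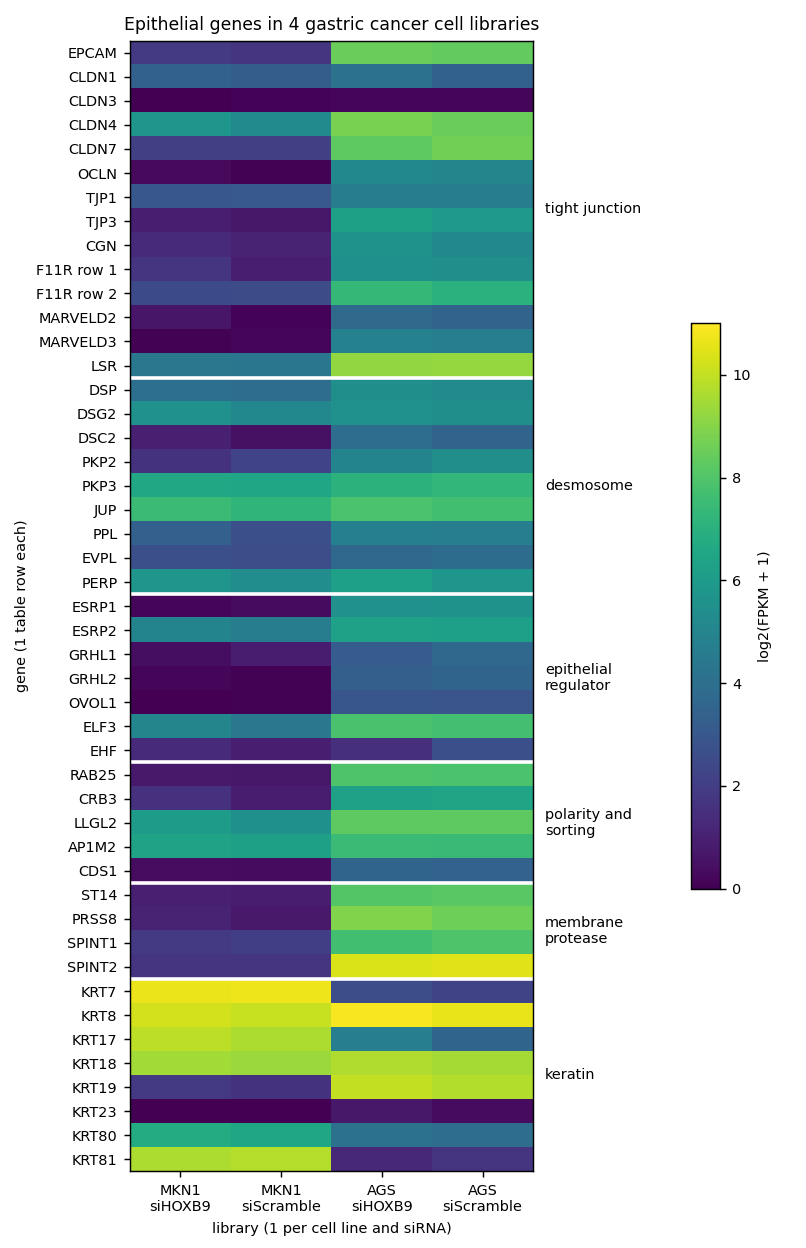
Level of the 47 rows in each library, as log2(FPKM + 1), grouped by role (columns, MKN1 siHOXB9, MKN1 siScramble, AGS siHOXB9, AGS siScramble; 1 library each). The 2 columns of a line look alike, and the lines part widely in the protease group and in KRT7, KRT19 and KRT81.

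**Figure D3:**
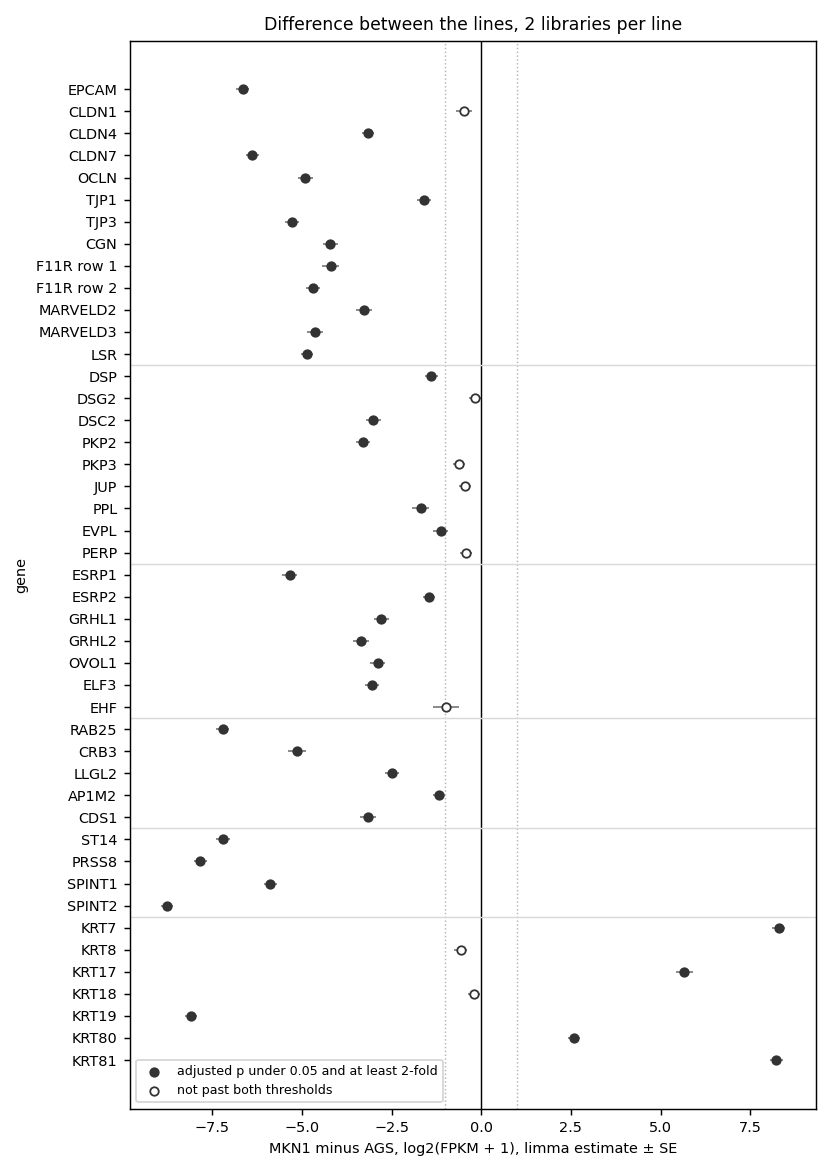
Estimated difference of MKN1 minus AGS in log2(FPKM + 1) with its SE, from limma over 2 libraries per line, for the 45 rows in the fit (filled, past both thresholds; open, not; dotted lines, 2-fold). Values run from -8.76 for SPINT2 to 8.29 for KRT7, and the desmosome group lies closest to 0.

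Of the tight junction group, 12 of 13 rows in the fit were lower in MKN1, beside 20.9% of all rows in the fit. Of the 12, 4 (OCLN, TJP3, MARVELD2 and MARVELD3) entered the fit through AGS alone, which fixed their direction. EPCAM, a homophilic adhesion protein of epithelia that binds claudins, was at 2.70 and 2.14 FPKM in the MKN1 siHOXB9 and siScramble libraries and at 359 and 328 FPKM in the AGS siHOXB9 and siScramble libraries. Its MKN1 mean was 0.705% of its AGS mean (limma estimate -6.66, SE 0.176, adjusted p = 6.6e-07). CLDN7, a claudin known to bind EPCAM, was at 3.21 FPKM in both MKN1 libraries and at 307 and 403 FPKM in the AGS siHOXB9 and siScramble libraries. LSR, the angulin of junctions where 3 cells meet, was at 20.1 and 19.2 FPKM in MKN1 siHOXB9 and siScramble and at 597 and 611 FPKM in AGS siHOXB9 and siScramble. For these genes the gap between the lines was many times the gap between the libraries of a line. Occludin (OCLN) and its relatives MARVELD2 (tricellulin) and MARVELD3 all stayed under 1 FPKM in MKN1, at 0.0419 to 0.593 FPKM over the 3 genes, and at 10.4 to 34.5 FPKM in AGS. The 3 scaffold genes differed by unequal amounts. TJP1 (ZO-1) was at 6.99 and 7.45 FPKM in MKN1 siHOXB9 and siScramble and at 24.3 and 23.8 FPKM in AGS siHOXB9 and siScramble (estimate -1.61), whereas TJP3 (ZO-3) was at 0.871 and 0.630 FPKM against 76.3 and 58.6 FPKM in the same order (estimate -5.28). Cingulin (CGN), which links ZO proteins to the cytoskeleton, was at 1.48 and 1.09 FPKM in MKN1 and 48.8 and 34.5 FPKM in AGS, siHOXB9 first in each line. The 2 rows of F11R, which encodes the adhesion molecule JAM-A, had MKN1 means of 3.44% and 3.18% of their AGS means, and the table does not say how the rows differ.

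Claudins kept different shares of their AGS level. CLDN1 was at 9.57 and 8.34 FPKM in MKN1 siHOXB9 and siScramble and at 16.6 and 9.81 FPKM in AGS siHOXB9 and siScramble, and did not pass the test between the lines (estimate -0.47, SE 0.221, limma adjusted p = 0.103). CLDN4 was at 54.4 and 36.4 FPKM in MKN1 and at 443 and 372 FPKM in AGS, in the same order, and its MKN1 mean was 11.1% of its AGS mean. CLDN3 and CLDN4 are neighbours on chromosome 7 in GRCh38 (chr7:73768997-73770270 on the reverse strand and chr7:73799542-73832693 on the forward strand, GENCODE 29), 29272 bases apart. CLDN3 nevertheless had at most 0.158 FPKM in any library and was listed at 0 in MKN1 siHOXB9. Summed over 23 claudin genes, the level was 85.2 and 58.7 FPKM in MKN1 siHOXB9 and siScramble and 1053 and 1050.4 FPKM in AGS siHOXB9 and siScramble. CLDN4 made up 63.8% and 62.0% of the MKN1 sums and 42.0% and 35.4% of the AGS sums. CLDN6, a fetal claudin outside the 46 genes, was at 0.512 and 0.0784 FPKM in MKN1 siHOXB9 and siScramble and at 260 and 231 FPKM in AGS siHOXB9 and siScramble, and made up 24.6% and 22.01% of the AGS sums. CLDN7 made up 29.1% of the sum in AGS siHOXB9 and 38.3% in AGS siScramble.

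Desmosome genes differed least in size between the lines, with 5 of 9 lower in MKN1 and 4 not called. Of all rows in the fit, 20.9% were lower. Of the 5 desmosome genes lower in MKN1, DSC2 entered the fit through AGS alone, which fixed its direction. DSG2, the desmoglein of simple epithelia, was at 46.6 and 33.7 FPKM in MKN1 siHOXB9 and siScramble and at 45.9 and 43.1 FPKM in AGS siHOXB9 and siScramble, so the lines overlapped (estimate -0.16, SE 0.185, limma adjusted p = 0.476). DSC2, the desmocollin that pairs with it, was at 0.930 and 0.411 FPKM in MKN1 siHOXB9 and siScramble and at 14.5 and 10.4 FPKM in AGS siHOXB9 and siScramble (estimate -3.01, SE 0.213, adjusted p = 2.72e-05). The plaque proteins parted in the same way. JUP (plakoglobin) was at 178 and 144 FPKM in MKN1 siHOXB9 and siScramble and at 232 and 205 FPKM in AGS siHOXB9 and siScramble, and PKP3 had a MKN1 mean of 64.6% of its AGS mean, both under 2-fold. PKP2, in contrast, had a MKN1 mean of 7.74% of its AGS mean (estimate -3.30, SE 0.199, adjusted p = 1.26e-05). DSP (desmoplakin, estimate -1.40), PPL (periplakin, -1.69) and EVPL (envoplakin, -1.13), plakin proteins that reach the filaments, were lower in MKN1 by smaller amounts. EVPL was under 2-fold after centring on the median gene (-0.94) and after quantile normalization (-0.93), and without a filter on low values neither EVPL (limma adjusted p = 0.0661) nor PPL (limma adjusted p = 0.0623) passed the test. PERP, a desmosomal membrane protein and p53 target, did not pass the test between the lines (estimate -0.44, SE 0.169, limma adjusted p = 0.058).

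Keratins were abundant in both lines, and apart from KRT8 and KRT18 the abundant ones were different genes in each line. Summed over 55 keratin genes, the level was 5503 and 5279.8 FPKM in MKN1 siHOXB9 and siScramble and 3789 and 3200.3 FPKM in AGS siHOXB9 and siScramble, or 0.666% and 0.673% of the summed FPKM in MKN1 and 0.488% and 0.385% in AGS. KRT8 was at 1229.9 and 1077 FPKM in MKN1 siHOXB9 and siScramble and at 1879.6 and 1566 FPKM in AGS siHOXB9 and siScramble. Its partner KRT18 was at 721 and 654 FPKM in MKN1 and at 837 and 743 FPKM in AGS, in the same order of siRNA. Neither reached a 2-fold difference between the lines (estimates -0.58 and -0.20). KRT8 and KRT18 have many pseudogenes, which summed to at most 3.96 FPKM for KRT8 and 0.837 FPKM for KRT18 in any library. KRT8 and KRT18 also share exon sequence on opposite strands of chromosome 12. Whether strand was used in counting is not stated, so reads of overlapping genes cannot be told apart. This also holds for CLDN7 (with ELP5), CRB3 (with DENND1C), ESRP2 (with NFATC3), MARVELD3 (with PHLPP2) and KRT7, DSG2, ELF3 and SPINT1 (with antisense RNAs), whose values are uncertain to that extent. The same applies to PRSS8, GRHL2, OVOL1 and KRT23, which share exon sequence with genes on the other strand. CLDN7, ELF3, ESRP2, F11R and SPINT2 share exon sequence with a gene on the same strand, which strand would not separate.

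The other keratins were high in 1 line each. KRT19, a type I keratin of ductal and simple epithelia, was at 2.66 and 2.02 FPKM in MKN1 siHOXB9 and siScramble and at 1001 and 838 FPKM in AGS siHOXB9 and siScramble (estimate -8.11, SE 0.168, limma adjusted p = 5.07e-07). KRT17 was at 948 and 812 FPKM in MKN1 siHOXB9 and siScramble and at 24.9 and 10.6 FPKM in AGS siHOXB9 and siScramble (estimate 5.66, SE 0.239, adjusted p = 2.93e-06). KRT7, a type II keratin of ductal epithelia, was at 1629 and 1710.4 FPKM in the MKN1 siHOXB9 and siScramble libraries and at 4.98 and 3.73 FPKM in the AGS siHOXB9 and siScramble libraries (estimate 8.29, SE 0.181, adjusted p = 5.07e-07). KRT81, known as a hair keratin, was at 811 and 876 FPKM in MKN1 siHOXB9 and siScramble and at 1.44 and 2.26 FPKM in AGS siHOXB9 and siScramble (estimate 8.23, SE 0.179). KRT86, its close relative, was at 21.0 and 26.7 FPKM in MKN1 and at 0.313 and 1.31 FPKM in AGS, siHOXB9 first, and reads of the 2 genes may not be fully separable. KRT80, a type II keratin, was at 109 and 88.1 FPKM in MKN1 siHOXB9 and siScramble and at 16.7 and 14.4 FPKM in AGS siHOXB9 and siScramble. KRT7, KRT17, KRT80 and KRT81 together held 63.5% and 66.0% of the keratin sum in MKN1 siHOXB9 and siScramble, against 1.27% and 0.968% in AGS siHOXB9 and siScramble. The summed type II members were 2.26 and 2.56 times the summed type I members in MKN1 siHOXB9 and siScramble and 1.02 and 0.997 times in AGS siHOXB9 and siScramble.

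KRT80 (chr12:52168996-52192000), KRT7 (chr12:52232520-52252186), KRT81 (chr12:52285913-52291534), KRT8 (chr12:52897187-52949954) and KRT18 (chr12:52948871-52952901) lie in the type II cluster of chromosome 12 (GRCh38, GENCODE 29), and the first 3 were higher in MKN1 while the last 2 were not called. KRT19 (chr17:41523617-41528308) and KRT17 (chr17:41619441-41624842) lie in the type I cluster of chromosome 17 and differed in opposite directions. KRT23, also of that cluster, was listed at 0 in both MKN1 libraries and was at 0.648 and 0.252 FPKM in AGS siHOXB9 and siScramble. KRT20, an intestinal type I keratin outside the 46 genes, was the single other keratin past 2-fold with siHOXB9, at 2.70 FPKM in AGS siHOXB9 against 0.364 FPKM in AGS siScramble (log2 difference 1.44), and was listed at 0 in both MKN1 libraries.

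**Figure D4:**
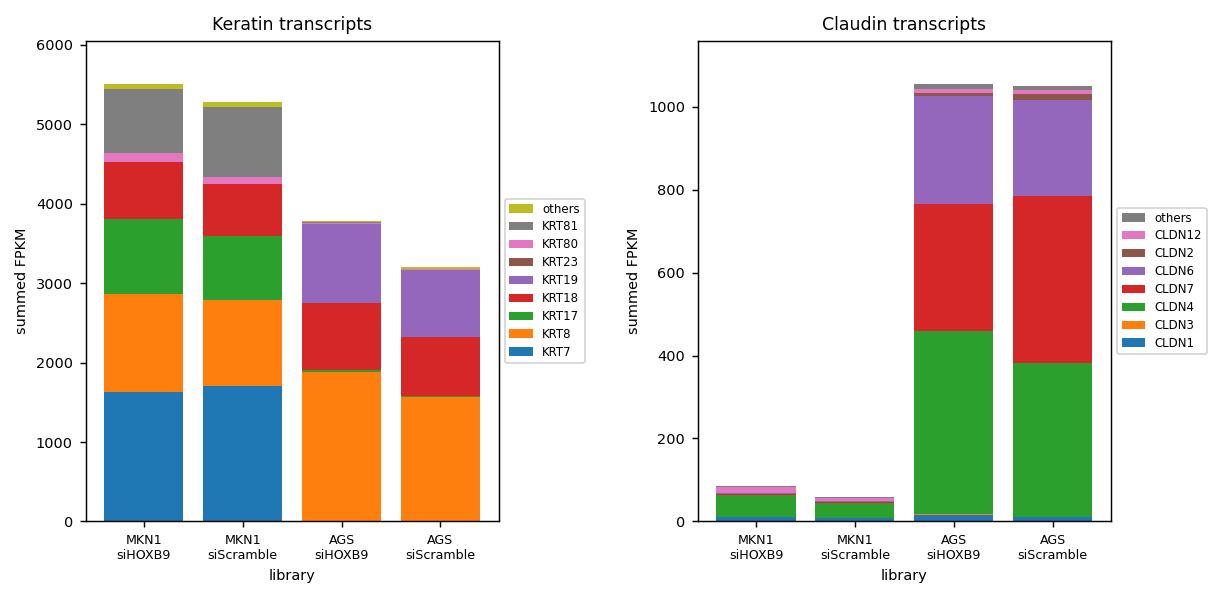
Summed FPKM of keratin genes (left) and claudin genes (right) in each library, stacked by gene (1 library per bar; vertical axes start at 0 and differ between panels). KRT8 and KRT18 appear in all bars, KRT7, KRT17 and KRT81 fill most of the rest in MKN1 and KRT19 in AGS, and the claudin bars reach 85.2 FPKM at most in MKN1.

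The polarity and sorting genes were all lower in MKN1, 5 of 5, beside 20.9% of all rows in the fit. Of the 5, 2 (RAB25 and CDS1) entered the fit through AGS alone, which fixed their direction. RAB25, a small GTPase of epithelial recycling endosomes, was at 0.699 and 0.634 FPKM in MKN1 siHOXB9 and siScramble and at 253 and 238 FPKM in AGS siHOXB9 and siScramble (estimate -7.21, SE 0.185, limma adjusted p = 6.6e-07). CRB3, the Crumbs protein of the apical polarity complex, was at 1.99 and 0.8504 FPKM in MKN1 siHOXB9 and siScramble and at 78.3 and 85.3 FPKM in AGS siHOXB9 and siScramble (estimate -5.14, SE 0.246, adjusted p = 4.41e-06). LLGL2, a basolateral polarity protein, kept 17.7% of its AGS mean in MKN1. AP1M2, a clathrin adaptor subunit for basolateral sorting, was at 78.8 and 76.0 FPKM in MKN1 siHOXB9 and siScramble and at 178 and 173 FPKM in AGS siHOXB9 and siScramble (estimate -1.17), and was under 2-fold after centring on the median gene (-0.98). CDS1, which makes CDP-diacylglycerol for phosphoinositide synthesis, was at 0.295 and 0.251 FPKM in MKN1 and at 10.69 and 10.04 FPKM in AGS, siHOXB9 first. Among 14 other polarity genes in the fit, 6 were lower in MKN1, none higher and 8 not called. The shares of all rows were 20.9% lower and 16.2% higher. SCRIB, a basolateral partner of LLGL proteins, was at 189 and 185 FPKM in MKN1 siHOXB9 and siScramble and at 216 and 228 FPKM in AGS siHOXB9 and siScramble, and PRKCZ, an atypical protein kinase C, was at 20.1 and 11.7 FPKM against 108 and 86.6 FPKM in the same order.

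Promoter sequences were compared because ZEB and SNAI repressors are known to bind the E-box CAGGTG in epithelial promoters. RefSeq promoter windows (GRCh38.p14, 250 bases before to 50 after a start) were found for 24 of the 46 genes, 34 windows in all. The E-box was searched on both strands, the other strand reading CACCTG. It was in 16 of the 34 windows, or 47.1%, in 20.6% of all 35116 windows and in 18.6% of windows of genes in the fit. The windows of CRB3 and CLDN7 held 5 matches each, that of AP1M2 3 and that of RAB25 2. The other CLDN7 window held no match. CRB3, CLDN7 and RAB25 differed by more than 4 log2 units between the lines and AP1M2 by little more than 1. Other genes with a match, such as SPINT1 (-5.88), TJP3 (-5.28) and OCLN (-4.91), also differed by more than 4. These 4 windows are shown as examples, chosen only among windows with a match. They are chr19:6464021-6464320 (forward strand) for CRB3, chr17:7262429-7262728 (reverse strand, 1 of 2 windows of the gene) for CLDN7, chr1:156060910-156061209 (forward strand) for RAB25 and chr19:10587263-10587562 (reverse strand) for AP1M2, each written 5′ to 3′ on the gene's strand with E-box matches in capitals.
CRB3: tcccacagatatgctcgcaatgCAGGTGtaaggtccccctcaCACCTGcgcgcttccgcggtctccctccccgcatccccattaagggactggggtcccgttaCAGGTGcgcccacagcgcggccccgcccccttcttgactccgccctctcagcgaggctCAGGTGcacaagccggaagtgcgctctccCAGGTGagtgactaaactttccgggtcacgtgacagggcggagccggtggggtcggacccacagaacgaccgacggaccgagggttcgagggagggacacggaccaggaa
CLDN7: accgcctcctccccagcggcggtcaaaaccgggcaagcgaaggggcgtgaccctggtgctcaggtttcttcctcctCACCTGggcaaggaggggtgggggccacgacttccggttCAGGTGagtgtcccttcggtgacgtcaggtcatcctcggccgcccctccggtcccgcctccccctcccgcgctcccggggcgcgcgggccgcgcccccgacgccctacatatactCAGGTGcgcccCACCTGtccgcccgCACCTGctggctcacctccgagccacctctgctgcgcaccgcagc
RAB25: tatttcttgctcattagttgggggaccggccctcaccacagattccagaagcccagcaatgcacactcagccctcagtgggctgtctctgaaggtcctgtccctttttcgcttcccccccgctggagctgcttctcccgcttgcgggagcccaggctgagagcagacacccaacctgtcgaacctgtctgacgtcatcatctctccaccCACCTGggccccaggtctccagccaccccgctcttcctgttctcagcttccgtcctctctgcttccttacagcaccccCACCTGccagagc
AP1M2: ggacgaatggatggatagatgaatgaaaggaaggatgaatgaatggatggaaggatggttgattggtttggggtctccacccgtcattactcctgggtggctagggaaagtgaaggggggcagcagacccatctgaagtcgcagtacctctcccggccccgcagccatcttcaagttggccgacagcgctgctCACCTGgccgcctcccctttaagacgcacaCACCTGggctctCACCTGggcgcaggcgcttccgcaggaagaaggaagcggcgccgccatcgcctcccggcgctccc
DSG2 and JUP, which were not called between the lines, each had a window with 2 matches, and the windows of LSR and CLDN4, which were lower in MKN1, had none. The GRHL motif AACCNGTT was in 1 of the 34 windows, that of CGN, and in 1.73% of all windows. The ETS motif CCGGAAGT was in 3 of the 34, or 8.82%, in 4.14% of all windows and in 7.45% of windows of genes in the fit. A match describes the letters of the window and says nothing of binding in these cells.

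Membrane protease genes showed the widest separation of any role group. PRSS8 (prostasin) and ST14 (matriptase) are serine proteases that activate each other and support the epithelial barrier, and SPINT1 and SPINT2 are their Kunitz-type inhibitors. All 4 were lower in MKN1, with a median estimate of -7.52, beside -3.04 for the 45 rows and -0.10 for all rows in the fit. Of the 4, ST14 was under 1 FPKM in MKN1 and entered the fit through AGS alone, which fixed its direction. SPINT2 was at 2.13 and 2.27 FPKM in MKN1 siHOXB9 and siScramble and at 1337 and 1434 FPKM in AGS siHOXB9 and siScramble, and its MKN1 mean was 0.159% of its AGS mean (estimate -8.76, SE 0.167, limma adjusted p = 5.07e-07). PRSS8 was at 1.0503 and 0.697 FPKM in MKN1 siHOXB9 and siScramble and at 477 and 381 FPKM in AGS siHOXB9 and siScramble (estimate -7.84). ST14 was at 0.976 and 0.821 FPKM in MKN1 and at 265 and 294 FPKM in AGS, siHOXB9 first (estimate -7.21). SPINT1 was at 2.63 and 3.07 FPKM in MKN1 siHOXB9 and siScramble and at 202 and 252 FPKM in AGS siHOXB9 and siScramble (estimate -5.88). SPINT2 was 0.807 and 0.742 times SPINT1 in FPKM in MKN1 siHOXB9 and siScramble, and 6.62 and 5.69 times in AGS siHOXB9 and siScramble. With siHOXB9, SPINT1 had log2 differences of -0.16 in MKN1 and -0.32 in AGS and PRSS8 0.27 and 0.33, inside the size rule in both lines.

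Among the regulators, 6 of 7 were lower in MKN1, beside 20.9% of all rows in the fit. Of the 6, 4 (ESRP1, GRHL1, GRHL2 and OVOL1) entered the fit through AGS alone, which fixed their direction. The epithelial splicing factors behaved unequally. ESRP1 was at 0.150 and 0.235 FPKM in MKN1 siHOXB9 and siScramble and at 46.7 and 47.7 FPKM in AGS siHOXB9 and siScramble (estimate -5.34, SE 0.208, limma adjusted p = 2.15e-06). ESRP2 was at 30.0 and 23.9 FPKM in MKN1 siHOXB9 and siScramble and at 78.3 and 73.1 FPKM in AGS siHOXB9 and siScramble (estimate -1.46, SE 0.175, adjusted p = 0.000361). The ETS factor ELF3 was at 32.6 and 20.02 FPKM in MKN1 siHOXB9 and siScramble and at 227 and 207 FPKM in AGS siHOXB9 and siScramble (estimate -3.04). GRHL1 and GRHL2, grainyhead factors that activate junction genes, and OVOL1, a zinc finger repressor of mesenchymal genes, lay between 0 and 0.866 FPKM in MKN1 and between 6.57 and 11.9 FPKM in AGS. GRHL1, which stayed under 1 FPKM in MKN1, had log2 differences with siHOXB9 of -0.50 in MKN1 (0.319 against 0.866 FPKM) and -0.49 in AGS (8.13 against 11.9 FPKM), and did not pass the test over both lines (estimate -0.50, SE 0.213, limma adjusted p = 0.703). EHF, on chromosome 11 (chr11:34621093-34661057, GRCh38), was at 1.48 and 0.885 FPKM in MKN1 siHOXB9 and siScramble and at 1.90 and 5.38 FPKM in AGS siHOXB9 and siScramble. Its line estimate of -0.99 fell just short of 2-fold (SE 0.357, adjusted p = 0.0461), and without the AGS siHOXB9 library, and with no siRNA term, the estimate was -1.56 and past both thresholds.

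Relatives of these regulators outside the 46 genes went the same way. Of 9 other epithelial regulators in the fit, 8 were lower in MKN1, beside 20.9% of all rows in the fit. Of the 8, 5 entered the fit through AGS alone, which fixed their direction. GRHL3 was at 0.439 and 0.0329 FPKM in MKN1 siHOXB9 and siScramble and at 15.4 and 18.0 FPKM in AGS siHOXB9 and siScramble. OVOL2 was at 0.136 and 0.231 FPKM against 31.9 and 30.2 FPKM in the same order. KLF4 was the 1 not called (estimate -0.92, SE 0.185). Of 6 repressors of epithelial genes, 5 were higher in MKN1, beside 16.2% of all rows in the fit. These 5 were under 1 FPKM in both AGS libraries and so entered the fit through MKN1 alone, which fixed their direction. ZEB1 was at 7.24 and 7.61 FPKM in MKN1 siHOXB9 and siScramble and at 0.0289 and 0.309 FPKM in AGS siHOXB9 and siScramble (estimate 2.86, SE 0.219, limma adjusted p = 3.99e-05). ZEB2 was at 4.11 and 3.61 FPKM and SNAI2 at 3.81 and 3.67 FPKM in MKN1 siHOXB9 and siScramble, and both were listed at 0 in both AGS libraries. TWIST1 was at 14.5 and 14.3 FPKM and TWIST2 at 24.1 and 24.6 FPKM in MKN1 siHOXB9 and siScramble, and neither exceeded 0.243 FPKM in AGS. SNAI1 was at 6.29 and 5.15 FPKM in MKN1 siHOXB9 and siScramble and at 4.19 and 5.18 FPKM in AGS siHOXB9 and siScramble, and was not called (estimate 0.24, SE 0.231). The summed repressors were at 58.9 to 60.1 FPKM in MKN1 and 4.55 to 5.49 FPKM in AGS, and their part in the lower epithelial genes of MKN1 was not tested.

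**Figure D5:**
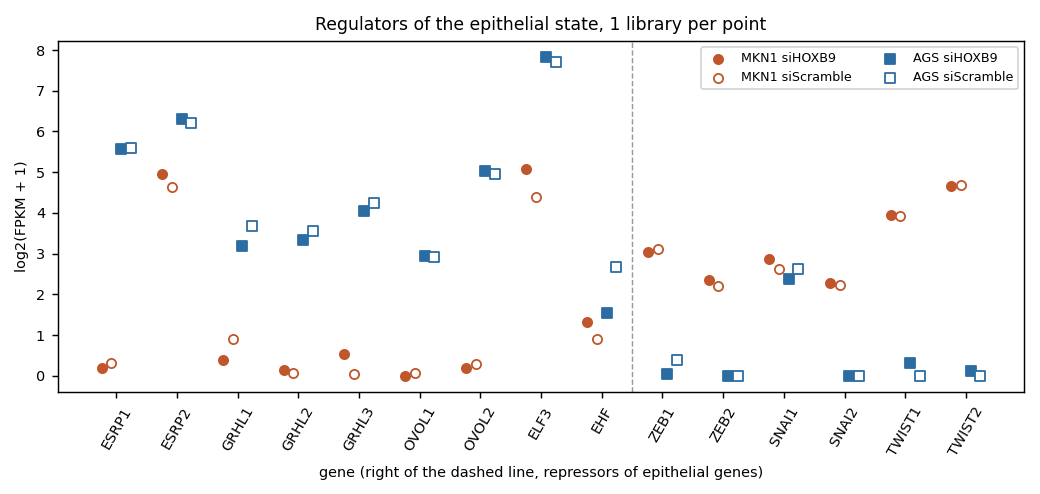
Level of epithelial regulators (left of the dashed line) and of repressors of epithelial genes (right) in each library, as log2(FPKM + 1) (circles, MKN1; squares, AGS; filled, siHOXB9; open, siScramble; 1 library per point). Both MKN1 points lie below both AGS points for the 9 genes on the left, least clearly for EHF, and above them for 5 of 6 on the right, SNAI1 being the exception by overlap with the AGS siScramble point.

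Other junction genes were counted from lists of related genes. For comparison, 20.9% of all rows in the fit were lower and 16.2% higher in MKN1. A gene that entered the fit through 1 line alone had its direction fixed by that. Of 11 other tight junction genes in the fit, 7 were lower in MKN1 (4 entered the fit through AGS alone), 1 higher and 3 not called. The higher one was JAM3, which entered through MKN1 alone, at 4.49 and 5.88 FPKM in MKN1 siHOXB9 and siScramble and at 0 and 0.0991 FPKM in AGS siHOXB9 and siScramble. Of 6 other desmosome and hemidesmosome genes, 4 were lower (1 entered the fit through AGS alone), 1 higher and 1 not called. The higher one was PLEC (plectin), at 111 and 80.7 FPKM in MKN1 siHOXB9 and siScramble and at 32.9 and 28.2 FPKM in AGS siHOXB9 and siScramble, and the hemidesmosome integrin ITGB4 was at 29.6 and 24.1 FPKM against 116 and 133 FPKM in the same order. Of 9 adherens junction genes, 6 were lower (2 entered the fit through AGS alone) and 3 not called. Those not called included CTNNA1 and CTNNB1, alpha- and beta-catenin (estimates 0.49 and -0.50). With siHOXB9, none of the other tight junction, desmosome, polarity, regulator, adherens junction or repressor genes passed the size rule in either line. CLDN2, a pore-forming claudin, came closest to it in AGS, at 7.33 FPKM in AGS siHOXB9 against 15.2 FPKM in AGS siScramble (log2 difference -0.96), and CRB1, a Crumbs relative, in MKN1, at 0.122 FPKM in MKN1 siHOXB9 against 1.24 FPKM in MKN1 siScramble (log2 difference -0.999).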

How the data were processed

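RNA was purified with poly-T beads and sequenced on an Illumina NovaSeq 6000, per the labels' protocols. The authors deposited FPKM values for 1 library per line and siRNA, on GRCh38, also named hg38, according to the submitters' processing notes. Which aligner, counter and annotation they used is not given in the sources used here. Summed FPKM differs between libraries. No counts are given, so depth was estimated from low values of genes with 1 transcript in GENCODE 29, taking 260 bases off each length. In each library, 56.3% to 58.4% of the values came within 0.05 of whole fragments.

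Within a line, 1 FPKM was added to both values and the log2 ratio taken, siHOXB9 over siScramble, for rows that reached 1 FPKM in the line, with 2-fold as the size rule. Fold changes on this scale understate those of low genes. Over 4 libraries, limma 3.58.1 in R 4.3.3 modelled line and siRNA on the log2(FPKM + 1) scale, with an intensity trend, for 13758 rows reaching 1 FPKM in 2 or more libraries, and its two-sided p-values were adjusted by Benjamini-Hochberg (threshold 0.05). Where nothing says that libraries came from separate cultures, p-values measure only the spread between them. Positions and shared exons came from GENCODE 29, where 14 of the 46 genes share exon sequence with a gene on the other strand and 5 with one on the same strand.

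Values were named for HOXB9, members past the size rule, the 6 largest differences per line, members called between the lines, up to 4 further members of a role group and, of the other lists, those past the size rule and up to 4 with the largest difference. Other non-members with values (among them SCRIB, KLF4, JAM3, PLEC, ITGB4, CTNNA1, CTNNB1 and KRT86) were chosen after their values were seen. Members and lists were chosen with earlier results of these data known. Alternatives were the pseudocount, the filter, 3 rescalings, a 1.5-fold rule, limma without trend or with the robust option, other terms and leaving out libraries.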

Additional observations from a re-analysis of the deposited data

Results flagged for a closer look

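EHF differed with siHOXB9 in opposite directions in the lines. It was at 1.48 FPKM in MKN1 siHOXB9 against 0.885 FPKM in MKN1 siScramble (log2 difference 0.40) and at 1.90 FPKM in AGS siHOXB9 against 5.38 FPKM in AGS siScramble (log2 difference -1.14). The difference in MKN1 minus that in AGS was 1.54 on the log2 scale. With 1 library per group the difference between the lines was not tested.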

How the results depend on the processing

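The depth limits statements on genes under 1 FPKM, which stand for fewer than about 18.6 to 22.7 fragments in 2 kb. The line was the block of the siRNA fit, as the labels give no replicate numbers. Without the line block, limma called 0 members with siHOXB9, as in every other setting run, with 0 to 4 at an unadjusted p under 0.05. In AGS, 2 members passed the size rule in every setting but a rule of 1.5-fold, where 3 did, beside 14.0% of all rows. In MKN1 the count of 0 became 2 of 33 with a pseudocount of 0.1 FPKM, beside 7.81% of all rows, and 5 of 33 with a rule of 1.5-fold, beside 13.4% of all rows, both by the construction of the alternative. The median difference of the members stayed above 0 in all settings, at 0.13 to 0.22 in MKN1 and 0.09 to 0.19 in AGS. Between the lines, 35 to 37 members were called with all libraries, against 37 as reported. Leaving out 1 library, with no siRNA term, gave 25 to 37, where the lower counts had 33 members in the fit. The median difference between the lines was -3.96 with a pseudocount of 0.1 FPKM, against -3.04 as reported, and no called member changed sign in any setting. Centring moved the median of all genes between the lines to 0.09, against -0.10 as reported.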
